A study of Caenorhabditis elegans with 2 samples.

Results

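Small nuclear RNA (snRNA) genes were examined for binding of the tagged protein Y67H2A.10 in Caenorhabditis elegans. The genes were all 129 that the Ensembl annotation of the WBcel235 genome (the same assembly as ce11) gives the biotype snRNA, out of 46926 annotated genes, and each was searched over its body plus 200 bp on either side. Windows that overlap were joined into 124 loci. The study was a chromatin immunoprecipitation with sequencing (ChIP-seq) of whole young adult worms of the strain RW12295, 63 hours old and grown from larvae synchronised by starvation at the L1 stage after bleaching. All of them carried a CRISPR insertion at Y67H2A.10 on chromosome IV that adds a TY1, EGFP and 3xFLAG tag, and the antibody was against GFP. There were 2 biological replicates in 1 group. The authors made the peak lists against a control, and control samples were not analysed here. The tagged protein comes from the edited gene in the whole animal, and the signal averages over all its cells.

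snRNAs are short non-coding RNAs that, with bound proteins, form the spliceosome, the machine that removes introns. In nematodes a related set, the spliced leader (SL) RNAs, donates a short leader to the start of many messenger RNAs by trans-splicing, and SmY RNAs take part in the same reaction. Their promoters are known for a proximal sequence element a short way before the 5′ end, bound by the SNAP complex, and the U6 genes, which RNA polymerase III transcribes, also have a TATA box.

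Some names give the RNA type or a mutant: 12 sls-1 genes for SL1 RNA, 18 sls-2 genes for SL2 RNA, 10 smy genes for SmY RNA, and sup-6 and sup-39, known as U1 snRNA genes. The others carry only sequence names, and they were grouped here with genes at least 80% identical. The 23 genes of the W05B2.8 group are 93 to 108 bp long, and 22 of them hold ACAGAGA, the letters with which U6 RNA pairs to the 5′ splice site. The 19 genes of the Y57G11C.35 group are 185 to 187 bp long, and 18 hold GTAGTA, the letters with which U2 RNA pairs to the branch point. The sup-39 group has 13 genes of 156 to 170 bp, and 12 hold ACTTACC, the letters near the start of U1 RNA that pair with the 5′ splice site. The F38E11.10 group has 12 genes of 117 to 126 bp, and 11 hold CTTTTAC, the letters of the U5 RNA loop that touches exon ends. The C52E4.8 group has 5 genes of 142 to 144 bp, all on chromosome V and all with the letters ATTTTTG, the kind of site that the Sm protein ring binds. These letters do not mark the group, since all genes of the Y57G11C.35 and sup-39 groups and all smy genes hold them too. The remaining 17 genes fell in none of these groups, and any likeness among them was not used.

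Many of the genes shared short words just before the 5′ end. The first set below shows genes that had a summit in the conservative peak list and carried 1 or both of the commonest words. It is not complete: sls-2.4 and H27M09.6 also had such a summit, with the word TGTCGG at -48 and -45 bp, and are not printed. Each line gives the 100 bases that end at the gene's 5′ end, read 5′ to 3′ on its strand in the RefSeq sequence of WBcel235. Capitals mark the word AACCCGC, the word TGTCGG and the word TATATAA, where present.
sup-6 (chrII:12944968-12945067, minus strand): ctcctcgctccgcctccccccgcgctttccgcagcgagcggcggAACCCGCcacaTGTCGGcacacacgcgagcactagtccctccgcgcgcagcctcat
T08G5.11 (chrV:14028636-14028735, minus strand): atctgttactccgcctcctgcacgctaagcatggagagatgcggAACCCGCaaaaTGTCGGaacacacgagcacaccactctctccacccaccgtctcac
sup-39 (chrII:6968559-6968658, minus strand): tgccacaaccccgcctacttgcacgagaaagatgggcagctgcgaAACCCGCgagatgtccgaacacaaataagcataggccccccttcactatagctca
sls-2.13 (chrIV:5063532-5063631, minus strand): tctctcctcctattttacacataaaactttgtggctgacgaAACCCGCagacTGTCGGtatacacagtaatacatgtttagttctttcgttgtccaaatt
F38E11.10 (chrIV:9444542-9444641, plus strand): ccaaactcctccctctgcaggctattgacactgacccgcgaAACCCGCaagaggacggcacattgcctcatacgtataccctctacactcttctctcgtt
Y57G11C.35 (chrIV:14765035-14765134, minus strand): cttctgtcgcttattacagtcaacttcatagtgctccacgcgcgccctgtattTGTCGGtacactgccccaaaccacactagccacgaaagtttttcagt
C52E4.8 (chrV:11980018-11980117, plus strand): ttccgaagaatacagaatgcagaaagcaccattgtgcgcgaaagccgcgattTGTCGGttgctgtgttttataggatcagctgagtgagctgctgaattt

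The next 3 are of the W05B2.8 group, in which 15 of 23 genes have the TATA box word upstream.
W05B2.8 (chrIII:10989579-10989678, plus strand): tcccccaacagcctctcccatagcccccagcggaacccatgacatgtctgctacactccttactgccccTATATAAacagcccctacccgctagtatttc
C28A5.7 (chrIII:4426956-4427055, minus strand): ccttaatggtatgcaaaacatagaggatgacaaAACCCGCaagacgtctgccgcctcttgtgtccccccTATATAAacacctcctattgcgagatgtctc
F54D8.7 (chrIII:5080899-5080998, minus strand): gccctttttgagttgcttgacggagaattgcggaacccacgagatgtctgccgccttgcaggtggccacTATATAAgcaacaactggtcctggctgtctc

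The next pair are SL2 RNA genes with high signals that differ from the first set. In sls-2.1 the capitals lie much farther from the 5′ end than in the others, and sls-2.2 has none of the words in capitals.
sls-2.1 (chrII:5844765-5844864, plus strand): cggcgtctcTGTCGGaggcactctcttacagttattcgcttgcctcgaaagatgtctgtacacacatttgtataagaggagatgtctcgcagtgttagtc
sls-2.2 (chrII:5543498-5543597, plus strand): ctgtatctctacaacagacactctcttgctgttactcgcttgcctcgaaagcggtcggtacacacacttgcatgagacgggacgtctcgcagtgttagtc

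The last pair are shown as a contrast, since they had no record in the ranked list of both replicates or of either one. The 100 bases of sls-2.12 differ from those of sls-2.13 at 7 positions, and B0213.24 has none of the words.
sls-2.12 (chrIV:5261813-5261912, plus strand): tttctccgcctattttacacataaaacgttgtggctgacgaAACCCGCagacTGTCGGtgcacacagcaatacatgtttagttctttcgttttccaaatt
B0213.24 (chrV:3969226-3969325, plus strand): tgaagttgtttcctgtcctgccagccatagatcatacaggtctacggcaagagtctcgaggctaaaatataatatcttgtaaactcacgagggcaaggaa

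AACCCGC was the commonest 7-letter word in the 100 bp before the 5′ end, counted once for each of the 119 distinct upstream sequences and on the gene's strand. It was in 32 of these. The commonest 6-letter word that shares no 4 letters in a row with it, TGTCGG, was in 41. By gene, 33 of 129 snRNA genes held AACCCGC (25.6%), against 0.203% of the 46761 other nuclear genes in the same window. For TGTCGG it was 42 genes (32.6%), against 1.04% of the other genes. These 33 genes had 31 distinct copies, since some windows overlap, and 29 of them began between -59 and -55 bp from the 5′ end, and of the 42 copies of TGTCGG, 38 began between -48 and -45 bp. The 13 genes that held both words all had them 11 bp apart, from first base to first base. The word TATATAA, searched because TATA boxes mark U6 promoters, was in 18 snRNA genes (14.0%, against 2.40% of other genes), and 16 of these began between -32 and -29 bp. Of these 16 genes, 15 were of the W05B2.8 group. The words were picked from these genes, so their share there is a description, and a match is not a binding site.

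**Figure D1:**
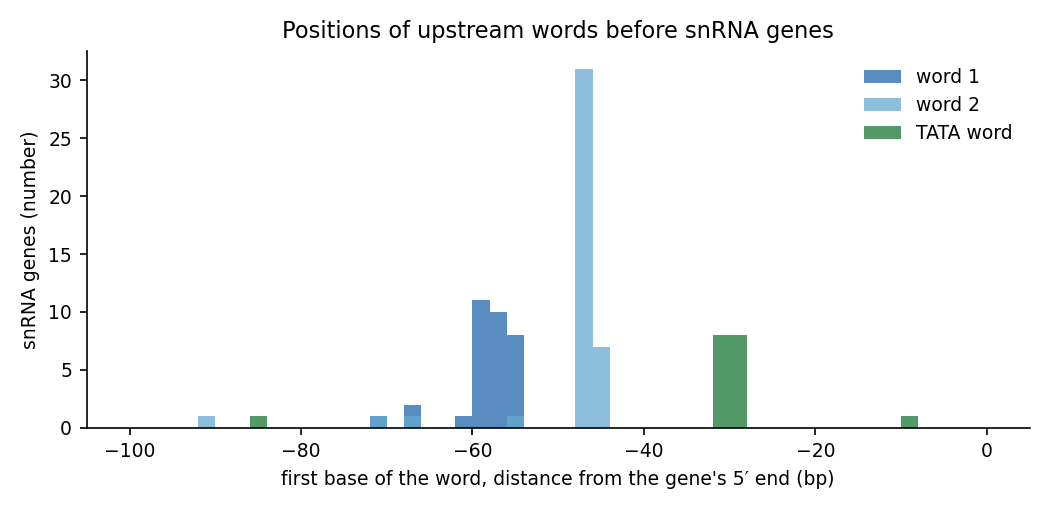
Number of snRNA genes (y axis) by the distance in bp of the first base of each word from the gene's 5′ end (x axis, 2-bp bins). Word 1 is AACCCGC, word 2 is TGTCGG, and the TATA word is TATATAA. Most copies of word 1 begin from -59 to -55 bp, most of word 2 from -48 to -45 bp and most of the TATA word from -32 to -29 bp.

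The words were not spread evenly over the RNA groups. AACCCGC was upstream of 10 of 12 genes of the F38E11.10 group, 8 of 13 of the sup-39 group and 9 of 18 sls-2 genes, and of no gene of the Y57G11C.35 group. TGTCGG was upstream of 14 of 19 genes of the Y57G11C.35 group and 12 of 18 sls-2 genes. No sls-1 gene had either word.

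Peak lists were of 2 kinds. A ranked list holds candidate peaks with an irreproducible discovery rate (IDR). The IDR used here is the share of records at that rank or better expected not to repeat. A thresholded list holds the peaks at an IDR of at most 0.01. The conservative list was the thresholded list from the comparison of the 2 replicates, and each replicate also had lists of its own, made from its own reads and the control. It had 709 records, which were merged into 666 regions where they overlap. Each record has a signal from the authors' peak caller and a summit, its highest point. The files give no read counts, so the depth behind the signals is unknown.

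A conservative summit lay in the window of 15 snRNA genes (11.6% of 129), against 1.56% of the 46797 genes of all other biotypes. The 15 genes made 14 loci with 14 regions, because mir-1831, a microRNA name that the annotation gives the snRNA biotype, lies inside sup-39. The count was 4 genes without replicate 2 and 10 without replicate 1. At an IDR of 0.001 it was 7 genes (5.43%, against 0.842% of other genes), and with no flank it was 8 (6.20%, against 0.694%). Of the 87 genes with no protein-coding 5′ end near, 9 had a conservative summit (10.3%). Of other short non-coding RNA genes, 10.7% of 634 tRNA genes and 9.54% of 346 snoRNA genes had a conservative summit by the same rule, and 1.53% of 261 miRNA genes. With equal windows of 200 bp on either side of the 5′ end the shares were 10.1% for snRNA, 10.6% for tRNA, 9.54% for snoRNA and 1.06% for protein-coding genes. The snRNA share was close to those of tRNA and snoRNA genes, and their difference was not tested.

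In the longer ranked list the order changed. A ranked summit lay in 47 snRNA windows (36.4%), against 24.6% of other genes, 60.7% of tRNA genes, 37.6% of snoRNA genes and 42.2% of protein-coding genes. With no flank 21 snRNA genes held one (16.3%), against 17.8% of other genes. Windows of protein-coding genes are longer, with a median gene length of 2026 bp against 109 bp for snRNA genes. Among genes with a ranked summit, 31.9% of snRNA genes also had a conservative one, against 17.7% of tRNA, 25.4% of snoRNA and 5.10% of protein-coding genes.

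**Figure D2:**
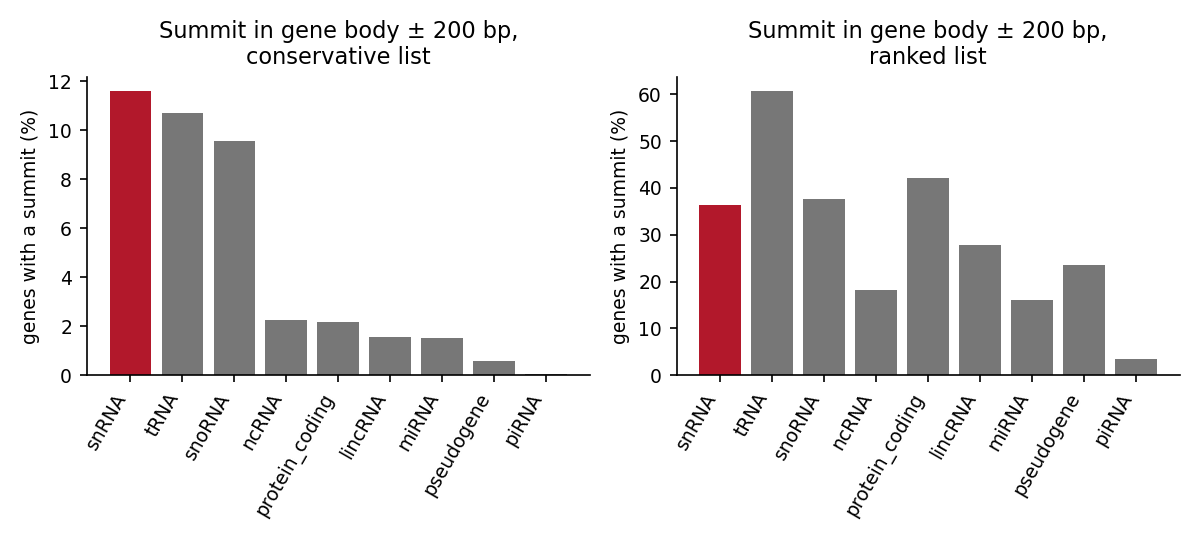
Percentage of genes of each biotype (x axis) with a summit in the gene body plus 200 bp on either side (y axis, %), in the conservative list (left) and the ranked list (right). snRNA genes are in red, at 11.6% and 36.4%. snRNA, tRNA and snoRNA genes stand above the other biotypes on the left, and tRNA genes are highest on the right.

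Most RNA groups had a gene among the 15. The sls-2 genes gave 4 of 18 and the sup-39 group 4 of 13. The W05B2.8 group gave 3 of 23, while the groups of Y57G11C.35 (19 genes), F38E11.10 (12) and C52E4.8 (5) gave 1 each. No sls-1 gene and no smy gene had a conservative summit. When ranked records were taken singly, without merging, 48 snRNA genes held one (background 25.2%), and sls-2.14 was the gene gained. These included 12 genes of the Y57G11C.35 group, 11 sls-2 genes, 9 of the sup-39 group, 6 of the W05B2.8 group, 4 of the F38E11.10 group and 3 smy genes. The 12 sls-1 genes had no record in the ranked list of both replicates or of either one. Their windows are repeats: the median share of 50-base words found once in the genome was 0% in them, against 87.2% in the windows of the 15 genes with a conservative summit and 83.6% in those of genes with no ranked record. How far such repeats lower the records was not tested.

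**Figure D3:**
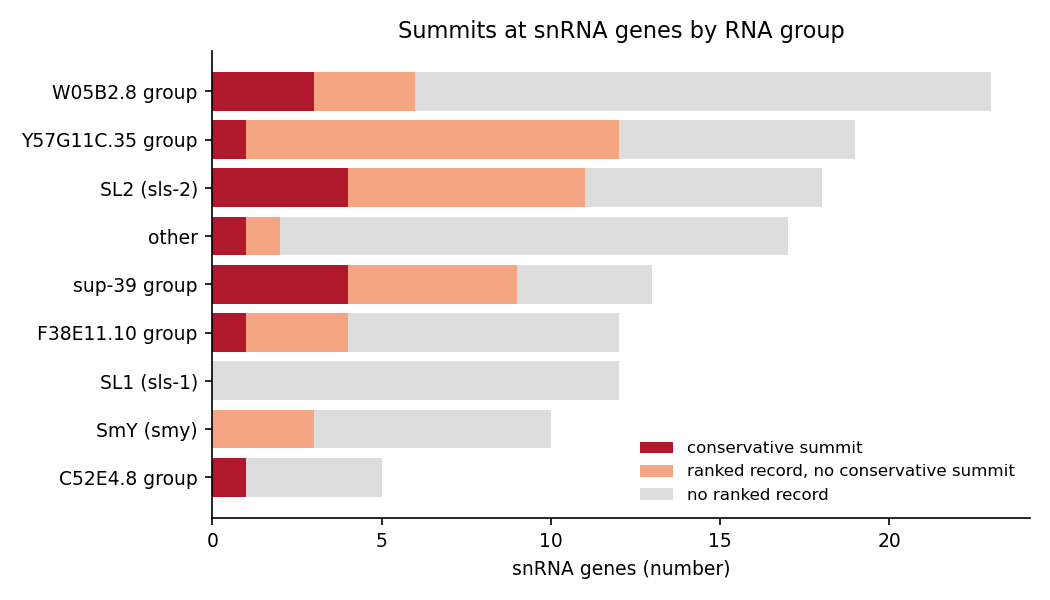
Number of snRNA genes (x axis) in each RNA group (y axis), split into genes with a conservative summit, genes with a ranked record only and genes with no ranked record. The sls-2 and sup-39 groups have 4 genes each with a conservative summit, and the sls-1 and smy groups have none.

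Among the SL2 RNA genes, sls-2.1 had the highest signal of all snRNA genes. Its conservative signal was 211, the 65th highest of the 666 regions, and its signal was 119 in the ranked list of replicate 1 and 87.6 in that of replicate 2. The summit was 30 bp before the 5′ end, in the region chrII:5844687-5844982. The gene sls-2.4 on chromosome I followed with a conservative signal of 178 and with 98.4 and 82.8 in the replicates. Its summit was 74 bp into the RNA, and a 5′ end of the ncRNA gene R12E2.18 lay 26 bp from it, closer than that of sls-2.4. For sls-2.2 the conservative signal was 133, with 79.6 and 57.8 in the replicates and a summit 27 bp into the gene. These 3 genes were in the thresholded list of each replicate taken alone, along with C52E4.8 and no other snRNA gene. The fourth, sls-2.13, had the lowest conservative signal of the 15, 72.6, with 39.7 in replicate 1 and 39.8 in replicate 2. Its summit was 208 bp after the 5′ end, beyond the 110-bp gene.

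In the sup-39 group, whose 2 named genes are U1 snRNA genes first found as suppressor mutants, H27M09.6 had the highest conservative signal, 123. Its signals were 62.4 and 56.8 in the replicates and its summit was 8 bp before the 5′ end. A 5′ end of the protein-coding gene syp-4 lay 200 bp from that summit. The gene sup-6 had a conservative signal of 107 and a replicate 2 signal of 58.8, with a summit 125 bp into its 165 bp. No record of the replicate 1 ranked list had its summit in the window or overlapped the region. That list was made apart from the comparison behind the conservative list, so its lack of a record does not show that replicate 1 lacked signal there. For T08G5.11 the conservative signal was 90.9, the replicate signals were 43.5 and 49.0, and the summit was 8 bp into the gene. For sup-39 they were 78.9, 44.9 and 38.4, with the summit 116 bp into the gene. A 5′ end of the ncRNA gene C15F1.14 was 50 bp from the sup-39 summit, so the region cannot be given to one RNA by position.

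The 3 genes of the W05B2.8 group with a conservative summit had TATATAA at -31 bp and the summit within 30 bp of the 5′ end. W05B2.8 itself had a conservative signal of 114 and a summit 30 bp into the gene, and its replicate signals were 37.7 and 85.1, the largest ratio among the 14 genes with a record in both. C28A5.7 had a conservative signal of 83.5, replicate signals of 40.6 and 41.7, and a summit 20 bp before the 5′ end. F54D8.7 had a conservative signal of 80.5, with 35.4 and 52.9 in the replicates, and a summit 12 bp into the gene. W05B2.8 and C28A5.7 are among 14 genes of identical sequence, and F54D8.7 is 1 of 3. Their windows reach into single-copy flanks: 87.2%, 71.3% and 86.3% of the 50-base words in the windows of W05B2.8, C28A5.7 and F54D8.7 occur once in the genome.

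The other 3 groups gave 1 gene each. F38E11.10 had a conservative signal of 140, replicate signals of 70.2 and 68.9 and a summit 83 bp before its 5′ end, the farthest upstream. C52E4.8 had a conservative signal of 111, replicate signals of 68.8 and 56.0 and a summit 35 bp into the gene. Its region, chrV:11980005-11980300, also lies 430 bp before the 5′ end of snr-4, which encodes an Sm protein. Y57G11C.35 had a conservative signal of 91.2, replicate signals of 40.9 and 48.9 and a summit 222 bp after the 5′ end, beyond the 187-bp gene. The 5′ end of an ncRNA gene lies 13 bp from that summit.

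The RNA of C52E4.8 is printed because its group has no name in the annotation, with the Sm-type site in capitals.
C52E4.8 (chrV:11980118-11980261, plus strand): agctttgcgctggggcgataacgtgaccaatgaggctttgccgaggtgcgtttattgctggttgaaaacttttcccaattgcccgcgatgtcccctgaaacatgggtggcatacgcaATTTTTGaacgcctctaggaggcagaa

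Over the 15 genes the median conservative summit was 30 bp after the 5′ end, with a range from 83 bp before to 222 bp after. The summit was upstream of the gene in 4, in the body in 8 and beyond the 3′ end in 3. The last 3 include mir-1831, whose summit is the same one that is counted in the body of sup-39. Counting sup-39 and mir-1831 once, 13 regions had a record in both replicates. Their replicate summits were a median of 58.0 bp apart, from 7 to 114 bp, and 11 of the 13 pairs were at most 100 bp apart. This spread is large beside a median gene length of 109 bp, so the positions do not separate the promoter of such a short gene from its body. The nearest annotated 5′ end of any gene was that of an snRNA gene for 11 of the 15. A protein-coding 5′ end lay within 500 bp of the window of 6 of the 15 genes, namely sls-2.1, sls-2.4, H27M09.6, F38E11.10, Y57G11C.35 and C52E4.8, and of 42 of the 129. Inside a protein-coding gene lay 6 of the 15, namely W05B2.8, C28A5.7, sup-6, sup-39, mir-1831 and Y57G11C.35, and 63 of the 129.

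**Figure D4:**
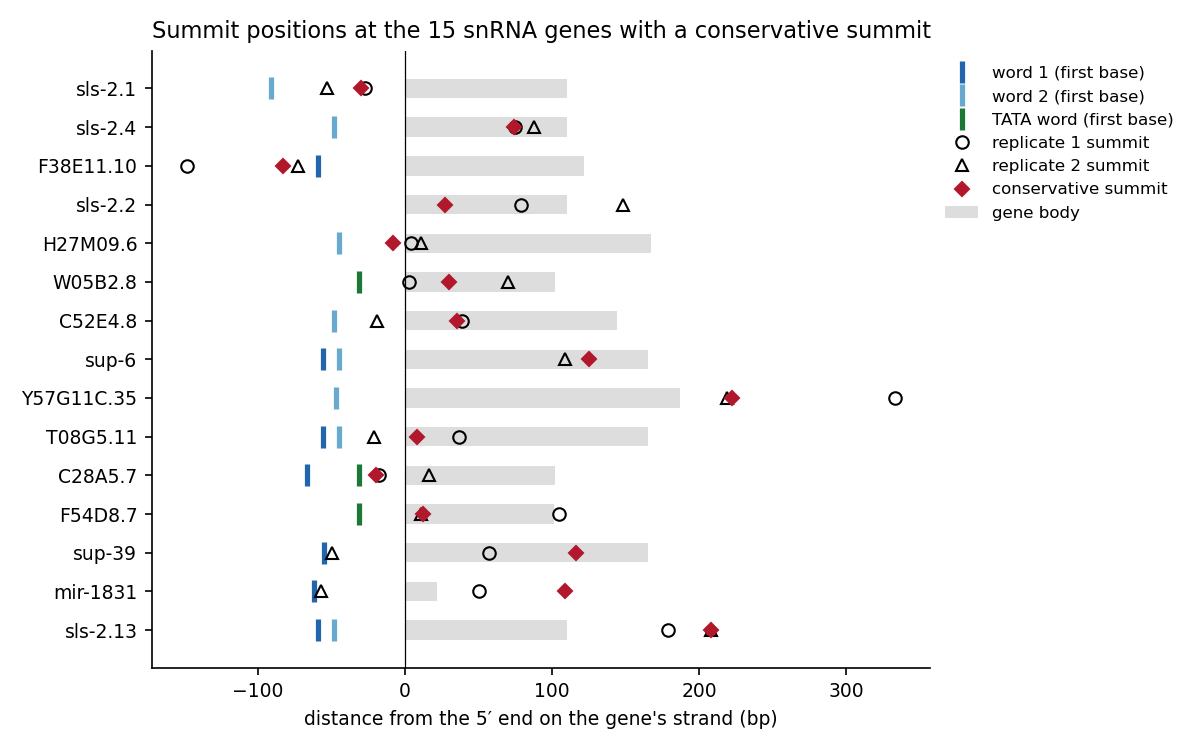
Summits of the 15 snRNA genes with a conservative summit (y axis, highest signal at the top) by distance in bp from the gene's 5′ end (x axis). Red diamonds are conservative summits, open circles and triangles are the summits of replicates 1 and 2, grey bars are gene bodies, and ticks are the first bases of the upstream words (word 1 is AACCCGC, word 2 is TGTCGG and the TATA word is TATATAA). Conservative summits run from -83 to 222 bp, with a median of 30 bp.

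Ranked summits differed in place between the groups. In the Y57G11C.35 group none of the 12 was upstream and 8 were beyond the 3′ end, with a median of 208 bp after the 5′ end and a range of 82 to 320 bp. In the W05B2.8 group the median was 9 bp and the range -20 to 30 bp over 6 genes. In the smy genes all 3 were upstream, from -115 to -18 bp. The sls-2 genes ranged from -76 to 208 bp over 11 genes, with 4 upstream, 4 in the body and 3 beyond it. These genes differ in length, and the summits of low records are less certain than those of conservative ones. The windows also differ in repeats. The median share of 50-base words found once in the genome was 62.3% in the Y57G11C.35 group. It was 83.6% in the W05B2.8 group, 94.2% in the sls-2 genes and 100% in the smy genes. Whether this moves the summits was not tested.

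The upstream words went with the records as follows. Either AACCCGC or TGTCGG was upstream of 12 of the 15 genes with a conservative summit, 23 of the 33 with a ranked record only and 27 of the 81 with no ranked record. Read the other way, 19.4% of the 62 genes with either word had a conservative summit and 56.5% a ranked record, against 4.48% and 19.4% of the 67 genes with neither. The exceptions with a conservative summit and neither word were sls-2.2, W05B2.8 and F54D8.7, and the last 2 of these had TATATAA. Among the 12, sup-39 and mir-1831 share the same region and the same copy of AACCCGC. The genes in a group share sequence, so they are not independent. No sls-1 gene had either word or any record, and 3 of 23 genes of the W05B2.8 group had either word. The difference by word therefore cannot be told apart from one between groups. Within groups it varied. The sls-2 genes with neither word, sls-2.2, sls-2.3 and sls-2.8, all had a ranked record. In the F38E11.10 group, C53B4.9 and C53D6.16 had neither word and no ranked record. Around the summits themselves, within 100 bp and on either strand, AACCCGC was in 3 of the 14 regions and TGTCGG in 4, against 2.61% and 5.21% of the 652 other conservative regions. The word ACGCGC was chosen with earlier results of these data known, so its shares are a description and were not tested. It was in none of the 14 regions and in 23.5% of the others. The bases within 50 bp of the summit were 48.9% ± 7.08 G or C (SD, n = 14 regions), against 49.0% ± 8.06 in the other regions.

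By strength the 14 regions were spread through the list. Their median signal was 109, with a range of 72.6 to 211, against a median of 105 and a range of 54.1 to 944 in the other 652 regions. Of the 15 genes, 8 had a signal above the median of all conservative regions. Of the 34 ranked records that pass the IDR of 0.01 but are not in the conservative list, none had its summit in an snRNA window.

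The replicates were compared over single records of their own ranked lists. A record lay at 44 snRNA genes in replicate 1 (background 30.1%) and at 54 in replicate 2 (background 35.4%). It was in both at 32 genes, in replicate 1 alone at 12 and in replicate 2 alone at 22, and 59 genes had no record in either list or in the ranked list of the study. The ranked list of replicate 2 is longer, with 31534 records down to a signal of 13.4, against 24546 down to 16.7 in replicate 1. The same split was not counted over other genes, so it is not read as particular to snRNA genes. In the thresholded list of replicate 1 alone 4 genes had a summit (3.10%, against 0.684% of other genes). In that of replicate 2 it was 10 genes (7.75%, against 0.964%), and these held all 4 of the former.

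At the 32 genes with both records the median log2 ratio of the replicate 2 signal to that of replicate 1 was -0.08, with a range of -1.32 to 1.18, and replicate 2 was higher at 13. By percentile rank the sign turned, with a median 0.122 points higher in replicate 2. In the 14 genes with a conservative summit the median log2 ratio was -0.08, and it was -0.03 over their 13 distinct regions. In the 642 other conservative regions with both records it was -0.02, with quartiles of -0.29 and 0.26. W05B2.8, at 1.18, lay above 0.68, the upper 5% point of those regions, and below their highest, 1.26. It is the highest of the 14 genes, picked for that. With 1 group of 2 replicates no test of the difference between them was possible. Every record of the 15 genes was high in its own list, at percentile 93.2 or above in replicate 1 and 96.7 or above in replicate 2. The 15 genes were picked from a list that compares the 2 replicates, so high records there follow from the choice. A high rank is not a low IDR. The replicate 1 and 2 IDR were 0.489 and 0.810 at sls-2.13, 0.0888 and 0.912 at sup-39, and 0.711 and 0.324 at Y57G11C.35. A second thresholded list, of both replicates together, held 11 of the 15 genes. It lacked these 3 and mir-1831.

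**Figure D5:**
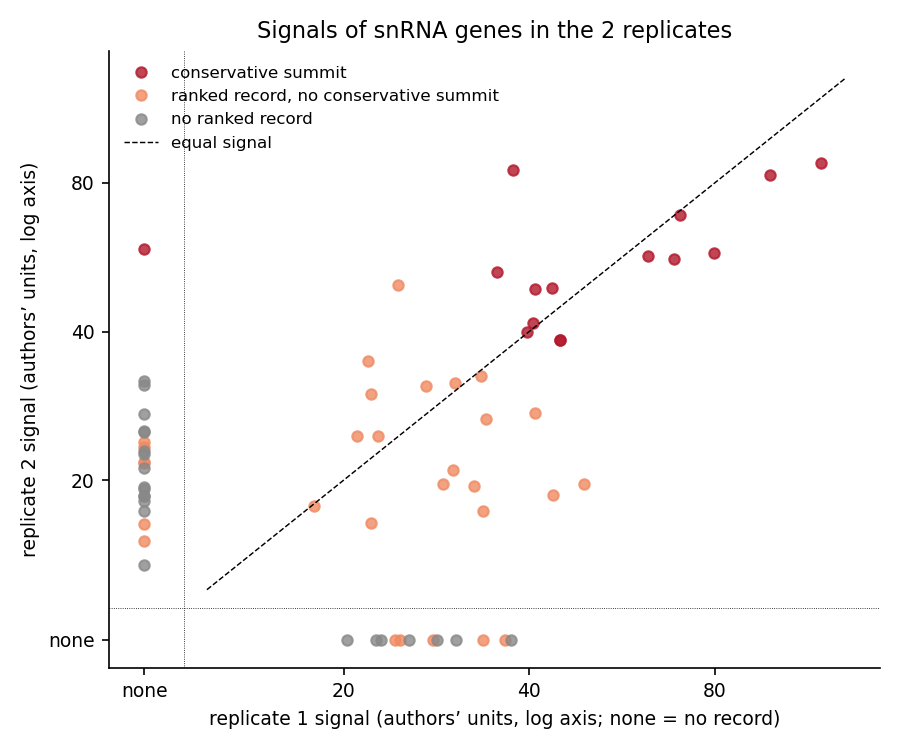
Signal of each snRNA gene in the ranked list of replicate 1 (x axis, log scale) and replicate 2 (y axis, log scale), in the units of the authors' peak caller. Each point is a gene, coloured by its place in the lists of the study, and genes with no record in a replicate are at "none". The conservative genes lie at the upper right, with W05B2.8 above the line of equal signal and sup-6 at "none" for replicate 1.

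Genes below the threshold are those left out of a list picked for agreement between the replicates, so weaker agreement among them was set by that choice. The 33 genes with only a ranked record had signals of 8.76 to 75.8 and an IDR of 0.0469 to 0.873, and 18 of them had a record in both replicates. The highest was sls-2.16, at 75.8, with 33.4 in replicate 1 and 32.6 in replicate 2 and an IDR of 0.0469. It is the gene nearest to the threshold from outside, and F54D8.7, at an IDR of 0.00833, is the nearest inside. Then came sls-2.8 at 70.3, sls-2.5 at 69.4 and sls-2.3 at 68.6, all of the SL2 type. The last had 24.5 in replicate 1 and 49.7 in replicate 2, where it passed the threshold of that replicate's own list. W04G5.11 of the Y57G11C.35 group had a ranked signal of 62.4. The gene sls-2.9, with a tRNA gene also in its window, had 61.8. F42C5.12 had 59.6 and ZK897.4 had 54.4, both of the F38E11.10 group. F08H9.11 of the sup-39 group had 58.5, and F08G2.11 of the Y57G11C.35 group had 52.7. So 5 of these 10 genes were sls-2 genes.

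The 3 genes whose percentile ranks differed most between replicates were ZK897.4, sls-2.9 and sls-2.5, each higher in replicate 1. The next, W04G5.11, differed by 48.3 points in the other direction, as much as sls-2.5 to 3 digits. ZK897.4 was at percentile 91.4 in replicate 1 and 31.5 in replicate 2, with signals of 33.7 and 17.3. The gene sls-2.9 was at percentile 97.0 and 42.3, with signals of 43.8 and 18.7. Its replicate summits were at -125 and -120 bp from the 5′ end. The tRNA gene M01E5.t1 also reaches into its window, so these records cannot be given to 1 RNA by the window alone. For sls-2.5 the percentiles were 97.9 and 49.6, with signals of 49.0 and 19.7. None of the 3 had a conservative summit.

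Protein-coding genes of the snRNA pathway were counted from a list by name. It held the snpc genes, which encode subunits of the SNAP complex, the ints genes for Integrator, which cuts the 3′ ends of snRNA precursors, and the snr and lsm genes for Sm and Sm-like ring proteins. With smn-1 and smi-1, which act in Sm ring assembly, and tbp-1, the TATA-binding protein, there were 36 genes. A conservative summit was in the promoter window (500 bp before to 100 bp after a 5′ end) of 6, against 2.31% of all 19985 protein-coding genes. A ranked record was there in 17, against 19.7% of protein-coding genes. The 6 are given with signal and summit position from the gene's nearest 5′ end. They were ints-4 (173, -2 bp), snr-4 (111, -430 bp, the region of C52E4.8), smn-1 (103, -187 bp), ints-8 (95.7, -74 bp), lsm-7 (93.2, -225 bp) and snpc-3.4 (77.7, 14 bp). Of these 6, only snr-4 shared its region with an snRNA gene. In ints-4 the signal was 76.3 in replicate 1 and 99.0 in replicate 2, and in smn-1 it was 62.9 and 48.3.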

How the data were processed

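Peak lists of 2 ChIP-seq replicates, and of both together, were used as the authors deposited them. Per the labels they are on the ce11 assembly. Per the text records deposited beside the files, the authors called peaks against a control. Software for alignment and peak calling: not given in the sources used here. By the text records and the values, the deposited columns are a score up to 1000 (rescaled from the IDR), a signal per record and, in ranked lists, the −log10 of the global IDR. In the 2 ranked lists of both replicates 16 per-replicate columns were not used.

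Genes came from Ensembl release 115, and gene names and sequence from RefSeq, matched by WormBase ID for all 129. Overlapping records were merged for counts, keeping the summit of the highest signal. Replicate values are the highest single record with its summit in the window, and a percentile is the percentage of a list's records with that signal or less. Groups were built by global alignment (biopython 1.88), and 50-base words were counted on both strands. Positions count the 5′ base as 0. Counting was tested on simulated data. The text names all genes with a conservative summit, the 10 highest with only a ranked record, and the 3 with the largest percentile difference. Members, lists and words were chosen with earlier results of these data known. Alternatives were other lists, IDR limits, flanks, merging and word lengths. Depth is unknown.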

Additional observations from a re-analysis of the deposited data

How the results depend on the processing

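The count of 15 snRNA genes (14 loci, 14 regions) fell under several settings. At an IDR of 0.001 it was 7 genes, loci and regions. With no flank it was 8 of each. Without the genes near a protein-coding 5′ end it was 9 genes, 8 loci and 8 regions. Without replicate 1 (the list of replicate 2 alone) it was 10 of each, and without replicate 2 it was 4 of each. The median summit moved between 11 and 57 bp when a replicate was left out, within the 32.5 bp SD between replicates. The 47 genes with a ranked summit fell to 21 with no flank, and were 54 and 44 without replicates 1 and 2. At an IDR of 0.05 the replicate 1 count of 4 became 9. The median replicate difference was negative as a log2 ratio and positive, 0.122 points, as percentile ranks. The most common word was in 42, 30 and 32 upstream sequences with 6 letters, 8 letters and 150 bp. Taking ranked records singly (48 genes) was chosen after seeing the data. Of 56 alternatives in all, 41 stayed within 1.5 times the count or within the spread. The cause of the other changes was not tested beyond the smaller window or list itself. No paired analysis was possible because there was only 1 group.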
